A study of Homo sapiens with 9 samples.

Results

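GPR183, GPR65, CD69 and CITED2 are 4 genes whose transcripts were far lower in U937 cells taken directly after 15 min at 42 °C than in unheated cells. They were chosen by that fall in signal, as genes of the leukocyte surface or with short-lived transcripts, out of 19775 genes measured on all 9 arrays of the series. The platform annotation gives 6 probe sets (groups of short probes for 1 transcript) that name 1 of them alone: 205419_at for GPR183, 214467_at for GPR65, 209795_at for CD69, and 207980_s_at, 209357_at and 227287_at for CITED2. U937 is an established human lymphoma line of monocyte-like cells. The 8 heated cultures spent 15 min at 42 or 44 °C and recovered at 37 °C for 0, 1, 3 or 6 h, and the 1 control culture stayed at 37 °C without treatment. Each of the 9 conditions was measured on 1 Affymetrix Human Genome U133 Plus 2.0 array, so no test could be run, no value has a replicate error, and the number of arrays limits the precision. The series title places the work in the study of apoptosis after heat stress.

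GPR183 (also called EBI2) is a G protein-coupled receptor for oxysterols that guides B cells, dendritic cells and other leukocytes within lymphoid tissue. GPR65 (TDAG8) is a receptor of the same broad class that senses protons and raises cyclic AMP when the surroundings turn acidic. CD69 is a C-type lectin of the cell surface and a classic early sign of lymphocyte activation, which binds the sphingosine phosphate receptor S1PR1 and keeps lymphocytes in tissue. CITED2 is not a surface protein: it acts in the nucleus, where it binds the coactivators CBP and p300 and competes for them with hypoxia-inducible factors. Transcripts of CD69 and CITED2 carry AU-rich elements or turn over quickly in other cells, so their level can follow changes in transcription closely.

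The promoters of 3 of the 4 genes are shown because the genes moved together and their start regions are unlike in base composition. Each sequence runs from 250 bases before to 50 bases after a transcription start in RefSeq (GRCh38.p14), read 5′ to 3′ along the gene. Capitals mark matches, on either strand, to the TATA letters TATAA or to the core ACGTG that hypoxia-inducible factors recognise. The window of GPR183 lies at chr13:99307350-99307649 on the minus strand, that of GPR65 at chr14:88004885-88005184 on the plus strand, and the most upstream of 3 windows listed for CITED2 at chr6:139374599-139374898 on the minus strand.
GPR183: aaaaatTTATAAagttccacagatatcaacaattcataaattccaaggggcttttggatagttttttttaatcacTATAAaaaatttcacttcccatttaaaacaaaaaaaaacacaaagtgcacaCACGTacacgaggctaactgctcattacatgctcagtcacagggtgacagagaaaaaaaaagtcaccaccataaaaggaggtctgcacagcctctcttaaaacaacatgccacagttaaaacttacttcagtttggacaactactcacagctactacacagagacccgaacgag
GPR65: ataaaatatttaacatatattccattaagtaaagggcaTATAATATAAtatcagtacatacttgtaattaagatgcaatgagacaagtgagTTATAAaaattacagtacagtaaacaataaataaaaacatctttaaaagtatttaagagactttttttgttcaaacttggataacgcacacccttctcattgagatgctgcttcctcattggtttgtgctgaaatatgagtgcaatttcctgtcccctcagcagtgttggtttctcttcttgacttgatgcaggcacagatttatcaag
CITED2: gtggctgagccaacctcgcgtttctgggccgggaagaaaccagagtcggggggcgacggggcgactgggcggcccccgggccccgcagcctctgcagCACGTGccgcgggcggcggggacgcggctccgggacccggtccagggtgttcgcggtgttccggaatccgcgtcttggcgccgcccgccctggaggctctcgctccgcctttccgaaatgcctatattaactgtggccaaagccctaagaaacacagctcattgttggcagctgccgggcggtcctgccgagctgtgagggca
The GPR183 and GPR65 windows were rich in A and T, with 36.7% and 31.7% G and C, against a median of 58.7% over 35116 promoter windows of the same length. The CITED2 window had 69.3% G and C. TATAA was found in the windows of GPR183 and GPR65, 175 bases or more before the start in GPR183 and 158 bases or more before it in GPR65, and in 20.4% of all windows. ACGTG was found in those of GPR183 and CITED2, and in 21.4% of all windows. The other 2 windows listed for CITED2, which are not printed, held neither TATAA nor ACGTG. In the printed CITED2 window the 2 matches, 1 on each strand, overlap in 1 palindrome. None of the 3 printed windows held the heat shock element core GAANNTTC, the cyclic AMP response half-site TGACG or the AP-1 letters TGANTCA, which were present in 6.77%, 24.6% and 7.71% of all windows. These are matches of letters in a short window and say nothing about binding of a factor there.

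The values below are MAS5 signals scaled to a common trimmed mean of 100 per array. A floor of 12.5, the median over all arrays, replaced lower signals. The 4 genes lay above the floor on all 9 arrays, with a lowest value of 14.1, so none of their folds is a bound. A gene is said to have risen or fallen where the fold was 2 or more, a log2 fold of at least 1 in size. Fold changes are relative to the rest of the array, and fewer cells that carry a transcript cannot be told apart from less transcript per cell. Signals of different probe sets are not on 1 scale, so levels are compared between arrays for each gene and not between genes.

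On the array taken directly after 42 °C the chaperone gene HSPA6, an inducible HSP70, had a scaled signal of 4752, against 138 on the control array. On the array taken directly after 44 °C it had 131. At 1 h after 44 °C it had 3989. Of 5 chaperone genes looked at for the heat response (HSPA6, DNAJB1, BAG3, HSPH1 and HSPB1), 5 had risen directly after 42 °C and 0 directly after 44 °C. The 42 °C array at 0 h, which served to choose the 4 genes, therefore carried 2-fold rises of these chaperones and the 44 °C array at 0 h did not, and the part of this difference in the results below was not tested. Groups follow the labels as given. The labels of these 2 arrays could not be checked independently and may need checking, and each value below that uses an array at 0 h rests on them. The 3′ to 5′ ratio of ACTB, which rises as RNA degrades, was 1.19 on both arrays taken at 0 h and 1.30 on the control array. Monocyte and myeloid markers fitted the line in part: 11 of 14 measured were above the floor on all arrays, among them LYZ, ELANE and SPI1, and MPO, FCGR1A and CD14 were at the floor on all. Of the T cell markers 0 of 9 measured were above the floor on all arrays, and CD3E, CD3G, CD8A and CD28 were at the floor throughout. Their summed scaled signal ran from 34.6 to 78.3, that of 7 B cell markers from 107 to 178 with 2 above the floor on all arrays, that of 7 NK cell markers from 1198 to 1719 with 4, and that of 4 erythroid markers from 68.4 to 189 with 2.

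GPR183 had the widest course of the 4 genes. Its scaled signal after 42 °C was 65.6 at 0 h, 45.0 at 1 h, 280.1 at 3 h and 592 at 6 h, against 522 in the control. After 44 °C it was 405 at 0 h, 183 at 1 h, 87.8 at 3 h and 433 at 6 h. The lowest array was thus 42 °C at 1 h and the highest 42 °C at 6 h, 13.2-fold apart. After 42 °C the receptor's transcript was at its lowest within the first hour and was back at 113% of control by 6 h. After 44 °C it declined at each time up to 3 h, to 16.8% of control, and stood at 82.9% at 6 h. In the comparison that chose it GPR183 was 7.97-fold lower than in the control (log2 fold -2.99). At 1 h after 42 °C it was 11.6-fold lower, rank 1 among the falls of all 19775 genes, and at 3 h after 44 °C it was 5.95-fold lower, rank 2.

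GPR65 followed a slower return. Its scaled signal after 42 °C was 14.1 at 0 h, 17.7 at 1 h, 29.3 at 3 h and 73.0 at 6 h, against 103 in the control. After 44 °C it was 63.3 at 0 h, 74.3 at 1 h, 34.6 at 3 h and 79.5 at 6 h. No heated array reached the control value, and the nearest, 44 °C at 6 h, had 77.1% of it. The array that chose the gene was its lowest, at 13.7% of control (7.29-fold lower), close to the floor. GPR65 was still 3.52-fold lower than the control at 3 h after 42 °C and 2.98-fold lower at 3 h after 44 °C. The values at 42 °C lay low on this probe set, and with a floor at the 75th percentile of all signals no GPR65 fold passed 2.

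CD69 came back earliest after 42 °C. Its scaled signal was 31.7 at 0 h, 39.5 at 1 h, 213 at 3 h and 151 at 6 h, against 154 in the control. After 44 °C it was 124 at 0 h, 82.4 at 1 h, 71.3 at 3 h and 169 at 6 h. The antigen's transcript thus stood at 20.6% of control directly after 42 °C and at 138% of control at 3 h, its highest array, a log2 fold of 0.47 that is short of 2-fold. After 44 °C its lowest value, at 3 h, was 46.3% of control. That fall was 2.16-fold (log2 fold -1.11), and -0.80 with the 44 °C array at 0 h in place of the control.

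CITED2 moved least in size. By its brightest probe set, 209357_at, the scaled signal after 42 °C was 205 at 0 h, 230 at 1 h, 373 at 3 h and 808 at 6 h, against 806 in the control. After 44 °C it was 753 at 0 h, 769 at 1 h, 380.0 at 3 h and 742 at 6 h. Directly after 42 °C the gene stood at 25.4% of control (3.94-fold lower) and at 6 h at 100.2%. After 44 °C it lay within 10% of control at 0, 1 and 6 h, and fell 2.12-fold at 3 h. This was the one gene with a second measurement on each array. Probe set 207980_s_at gave 144, 170, 332 and 635 at 0, 1, 3 and 6 h after 42 °C, against 650 in the control, and 566, 458, 231 and 579 after 44 °C. Over 18 comparisons the log2 folds of the 2 probe sets differed by a median of 0.16 and by at most 0.55, so CITED2 differences near that size lie within the spread between probe sets of the same array. The third, 227287_at, had scaled signals of 1.05 to 6.10, below the floor on all arrays.

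**Figure D1:**
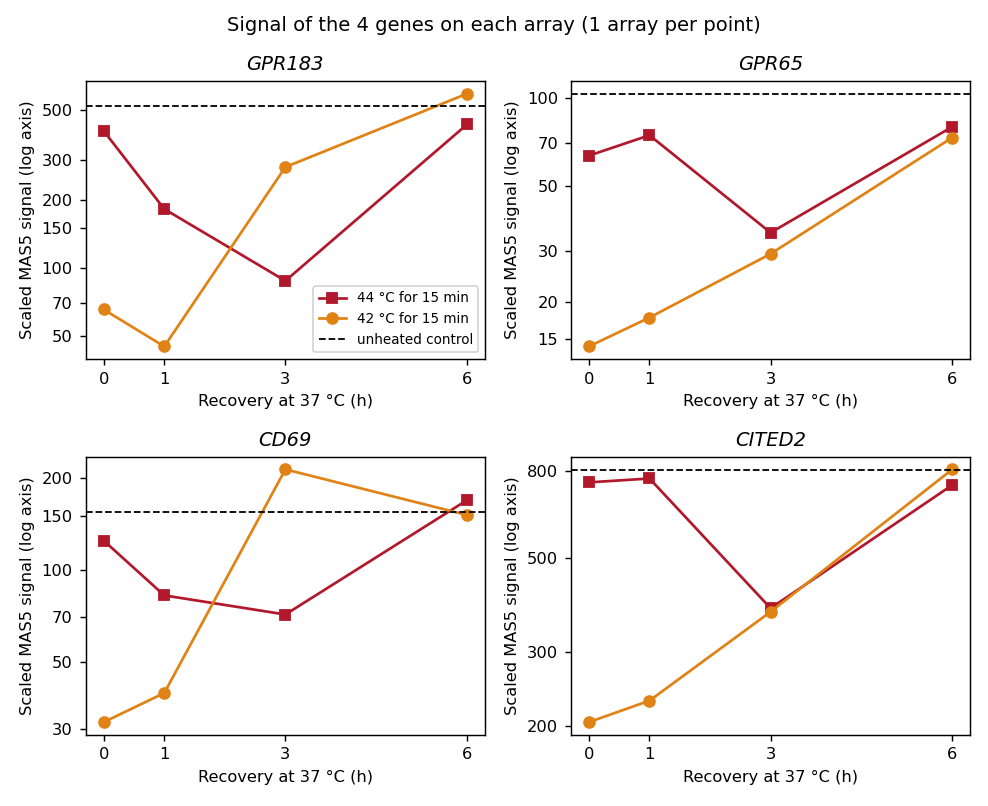
Scaled MAS5 signal (log axis) of GPR183, GPR65, CD69 and CITED2 against hours of recovery at 37 °C after 15 min at 44 °C (squares) or 42 °C (circles), with the unheated control as a dashed line and 1 array per point. After 42 °C all 4 genes are lowest at 0 or 1 h, and after 44 °C all 4 are lowest at 3 h.

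Set against the control array, 4 of the 4 genes fell directly after 42 °C, where 4.70% of the 10137 genes bright enough to be called fell. A gene could be called where its signal on 1 of the 2 arrays compared was at least 25.1, that is 2 times the floor. This count is what the choice of the genes fixed, and it says nothing further. The ranks in this comparison also follow from that choice. Among the falls of all 19775 genes, which include genes at the floor on 1 array, GPR183, GPR65, CD69 and CITED2 ranked 2, 4, 8 and 22. Among 10759 genes above the floor on both arrays GPR183 had the largest fall, GPR65 the next, CD69 was at rank 6 and CITED2 at rank 17. Between and around them stood RGS1, a regulator of G protein signalling (6.37-fold lower), the growth regulator MYC (5.08-fold), the cystine transporter SLC7A11 (4.41-fold), the sterol regulator INSIG1 (4.32-fold) and the TWEAK receptor TNFRSF12A (4.28-fold), with LOC401261 (5.92-fold) and the pseudogene PMS2P5 (4.39-fold). By other probe sets RGS1 had a log2 fold of -0.50, LOC401261 -0.30, SLC7A11 -2.13 and -0.62, and INSIG1 -1.94 and -1.92. Directly after 44 °C RGS1, SLC7A11, INSIG1 and TNFRSF12A had log2 folds of -2.99, -1.82, -1.66 and -1.57 (RGS1 -0.66 by its second probe set). MYC, PMS2P5 and LOC401261 had -0.28, -0.79 and -0.97, short of 2-fold. GPR183, GPR65, CD69 and CITED2, also short of it, had -0.37, -0.70, -0.31 and -0.10.

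The other comparisons with the control share that array with the one that chose the genes, so their falls are not independent of it. At 1 h after 42 °C 4 of 4 had fallen, with 2.93% of all genes that could be called. At 3 h 2 of 4 were lower by 2-fold or more, GPR65 and CITED2, with 5.95% of all, and GPR183 had a log2 fold of -0.90. By its second probe set CITED2 was at -0.97, short of 2-fold. At 6 h 0 of 4 were lower, with 4.55% of all. After 44 °C the counts were 0 of 4 at 0 h (2.00% of all genes), 1 of 4 at 1 h, GPR183 (0.884%), 4 of 4 at 3 h (2.76%) and 0 of 4 at 6 h (5.14%). The median log2 fold of the 4 genes was -2.57, -2.25, -1.01 and -0.01 at 0, 1, 3 and 6 h after 42 °C, and -0.34, -0.69, -1.34 and -0.20 after 44 °C, while that over all 19775 genes was 0 in each. With the 44 °C array at 0 h as baseline instead of the control, GPR65, CD69 and CITED2 at 3 h after 44 °C had log2 folds of -0.87, -0.80 and -0.99, all short of 2-fold.

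**Figure D2:**
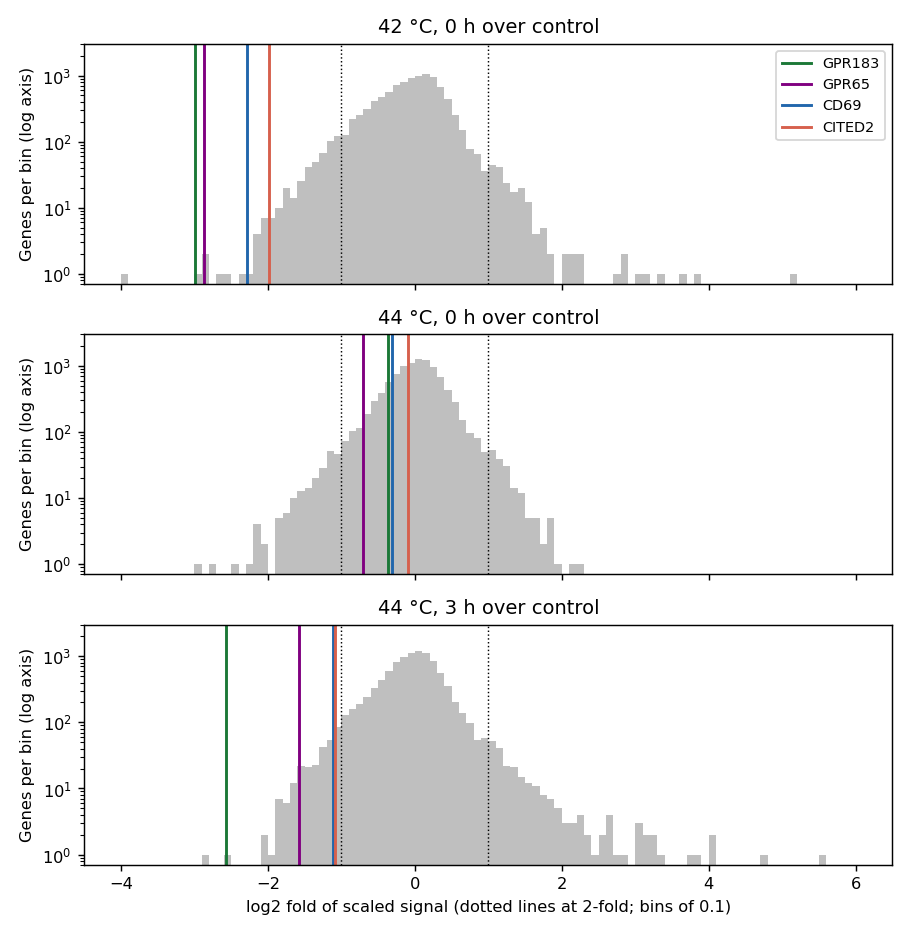
Number of genes (log axis) by log2 fold of scaled signal over the control, among genes bright enough to be called, for 42 °C at 0 h, 44 °C at 0 h and 44 °C at 3 h, with coloured lines at the 4 genes and dotted lines at 2-fold. The genes lie at the far left for 42 °C at 0 h, from -2.99 to -1.98. They lie left of 0 but short of 2-fold for 44 °C at 0 h, from -0.70 to -0.10, and from -2.57 to -1.09 for 44 °C at 3 h.

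At 0 and 1 h all 4 genes were higher after 44 °C than after 42 °C, and at 3 h GPR183 and CD69 were lower. Directly after heating, 44 °C over 42 °C gave log2 folds of 2.63 for GPR183, 2.16 for GPR65, 1.97 for CD69 and 1.88 for CITED2, a comparison that holds the array used to choose the genes, and 3.10% of all genes were higher by 2-fold or more. At 1 h, where neither array had served in the choice, 4 of 4 genes were higher after 44 °C, against 1.93% of all genes. GPR183 had a scaled signal of 183 at 44 °C and 45.0 at 42 °C, GPR65 74.3 and 17.7, CD69 82.4 and 39.5, and CITED2 769 and 230. At 3 h the order had turned for the first receptor and the lectin. GPR183 had 87.8 at 44 °C and 280.1 at 42 °C, 3.19-fold lower at the higher temperature, and CD69 71.3 and 213, 2.99-fold lower. They ranked 11 and 21 among the falls of all 19775 genes in this comparison, and 1.91% of all genes that could be called were lower by 2-fold or more. GPR65 had 34.6 at 44 °C and 29.3 at 42 °C, and CITED2 380.0 and 373, with log2 folds of 0.24 and 0.03. At 6 h 0 of 4 differed by 2-fold, with log2 folds from -0.45 for GPR183 to 0.16 for CD69. In the same comparison 2.65% of all genes were lower and 1.64% higher.

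The steps of recovery show the return of each gene on arrays that took no part in the choice. Between 1 and 3 h after 42 °C GPR183 rose 6.23-fold, the largest rise of all 19775 genes, and CD69 5.40-fold, the next largest, where 1.31% of all genes that could be called rose. GPR65 and CITED2 had log2 folds of 0.72 and 0.70 over the same interval. Between 3 and 6 h after 42 °C the 2 slower genes followed, GPR65 2.49-fold and CITED2 2.17-fold higher, and GPR183 was 2.11-fold higher again, where 4.53% of all genes rose. With median scaling GPR183 (0.90) and CITED2 (0.93) were short of 2-fold on the log2 scale, as was the second probe set of CITED2 (0.93). CD69 had a log2 fold of -0.50 in that interval. In the first hour after 42 °C, counted from the array that chose the genes, 0 of 4 changed by 2-fold. GPR65, at 14.1 and 17.7, was too dim on both arrays to be called. Of all genes that could be called, 0.818% were lower and 4.02% higher. GPR183 had a log2 fold of -0.54, and the others 0.17 to 0.33.

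After 44 °C all 4 genes were lower at 3 h than at 0 h, by unlike steps. From 0 to 1 h GPR183 was 2.22-fold lower, against 1.57% of all genes, and CD69 had a log2 fold of -0.60, GPR65 0.23 and CITED2 0.03. From 1 to 3 h GPR183, GPR65 and CITED2 were 2.08-fold, 2.15-fold and 2.02-fold lower, against 1.44% of all genes, values just past the rule. With median scaling all 3 were short of 2-fold, with log2 folds of -0.87 for GPR183, -0.92 for GPR65 and -0.83 for CITED2. Quantile normalisation gave -0.96 for GPR183 and -0.93 for GPR65, and the second probe set of CITED2 gave -0.99. From 3 to 6 h GPR183 rose 4.93-fold, rank 5 among the rises of all genes, CD69 2.37-fold and GPR65 2.30-fold, against 2.60% of all genes. CITED2 had a log2 fold of 0.97 by its brightest probe set and 1.33 by the other. After 44 °C the lowest array was thus the one at 3 h for each of the 4 genes, and after 42 °C it was the one at 1 h for GPR183 and the one at 0 h for the others.

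**Figure D3:**
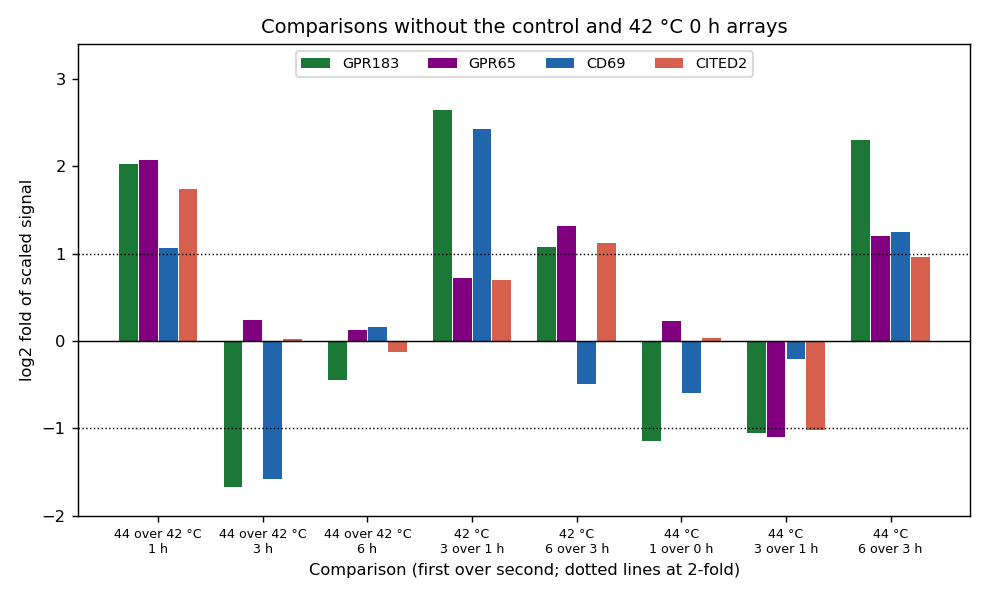
log2 fold of scaled signal of GPR183, GPR65, CD69 and CITED2 in the 8 comparisons that use neither the control nor the 42 °C array at 0 h, first over second, with dotted lines at 2-fold. All 4 genes are higher at 44 °C than at 42 °C at 1 h, and GPR183 (2.64) and CD69 (2.43) have the tallest bars between 1 and 3 h after 42 °C.

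Among the 4 genes the courses of GPR65 and CITED2 were the most alike by Pearson's r. Over the 9 arrays their log2 signals had a Pearson r of 0.99 and a Spearman rho of 0.83. GPR183 had an r of 0.90 with CD69 (rho 0.75), 0.88 with CITED2 (rho 0.83) and 0.85 with GPR65 (rho 0.77), so r and rho do not order its likeness to the other genes in the same way. CD69 had an r of 0.74 with CITED2 (rho 0.45) and 0.73 with GPR65 (rho 0.58). Over the 7 arrays left without the control and the 42 °C array at 0 h, r was 0.99 for GPR65 with CITED2. In those arrays GPR183 had 0.89 with CD69, 0.84 with CITED2 and 0.79 with GPR65, and CD69 had 0.56 with CITED2 and 0.53 with GPR65. These correlations describe 9 arrays that share their scaling and, as a set of genes chosen for 1 fall, part of their course. Among the 3494 genes above the floor on all arrays that varied by 2-fold or more, those most like GPR183 were ZNF134, MAD2L1BP, CXCR4, ZNF574 and CDKN1B (r from 0.95 to 0.97 over 9 arrays). CXCR4, the receptor of the chemokine CXCL12, had scaled signals of 775, 878, 1626 and 2143 at 0, 1, 3 and 6 h after 42 °C, against 2469 in the control, and 1996, 1835, 1034 and 2007 after 44 °C. CDKN1B, an inhibitor of cyclin-dependent kinases, had 292, 265, 630 and 910 after 42 °C, against 898 in the control.

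The genes most like GPR65 were EXOC8, CITED2, HPS6, ZNF217 and ZXDA (r from 0.97 to 0.99). EXOC8, a subunit of the exocyst that tethers secretory vesicles, had 72.2, 82.6, 105 and 218 at 0, 1, 3 and 6 h after 42 °C, against 249 in the control, and 168, 228, 116 and 231 after 44 °C. It ranked the 9 arrays in the same order as GPR65 did (rho 1). Those most like CITED2 were GPR65, EXOC8, ZNF217, TRIM13 and FBXL5 (r from 0.96 to 0.99). CD69 had the loosest likeness, with ELF1, ZNF805, GPR183, IRX5 and ACVR1B at an r of 0.90 each. ELF1, a transcription factor of lymphoid and myeloid cells, had 389, 500, 975 and 871 at 0, 1, 3 and 6 h after 42 °C, against 910 in the control. After 44 °C it had 586, 674, 720 and 1102, lowest at 0 h, where CD69 was lowest at 3 h. Over the 7 arrays without the control and the 42 °C array at 0 h, its r with CD69 was 0.83.

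Other receptors of leukocytes were also lower directly after 42 °C. Of 42 measured genes for leukocyte G protein-coupled receptors 10 fell and 0 rose, where 1.82% of all genes that could be called rose. The 10 include GPR183 and GPR65, which were chosen by this fall. Without GPR183 and GPR65 they were 8 of 40, or 8 of the 27 bright enough to be called, against 4.70% of all genes that could be called, and the median log2 fold was -0.04 over the 40 and -0.40 over the 27. The leading ones were C5AR1, the receptor of complement fragment C5a, with 12.9 directly after 42 °C against 54.8 in the control, and GPR132, a relative of GPR65, with 22.9 against 82.3. CCR1, CXCR4, PTGER4, GPR84, P2RY8 and GPR18 had log2 folds from -1.79 to -1.04. The second probe set of GPR132 had a log2 fold of -0.58 and that of PTGER4 -0.75, both short of 2-fold, while that of CCR1 had -1.87 and those of CXCR4 had -1.58 and -1.40. Directly after 44 °C 1 of the 40 fell, C5AR1, to the floor of 12.5. Then 26 were bright enough to be called and 2.00% of all such genes fell, so a count of 1 lies near that share. At 3 h after 44 °C 3 fell, GPR84, CXCR4 and P2RY2, with 27 that could be called. The histamine receptor HRH1 rose (log2 fold 1.70, but 0.01 by its second probe set). Of all genes that could be called at 3 h after 44 °C, 2.76% fell and 2.28% rose. CXCR4 and GPR84 therefore shared with GPR183 and GPR65 a fall directly after 42 °C and at 3 h after 44 °C, and C5AR1 did not, with 53.0 at 3 h after 44 °C.

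**Figure D4:**
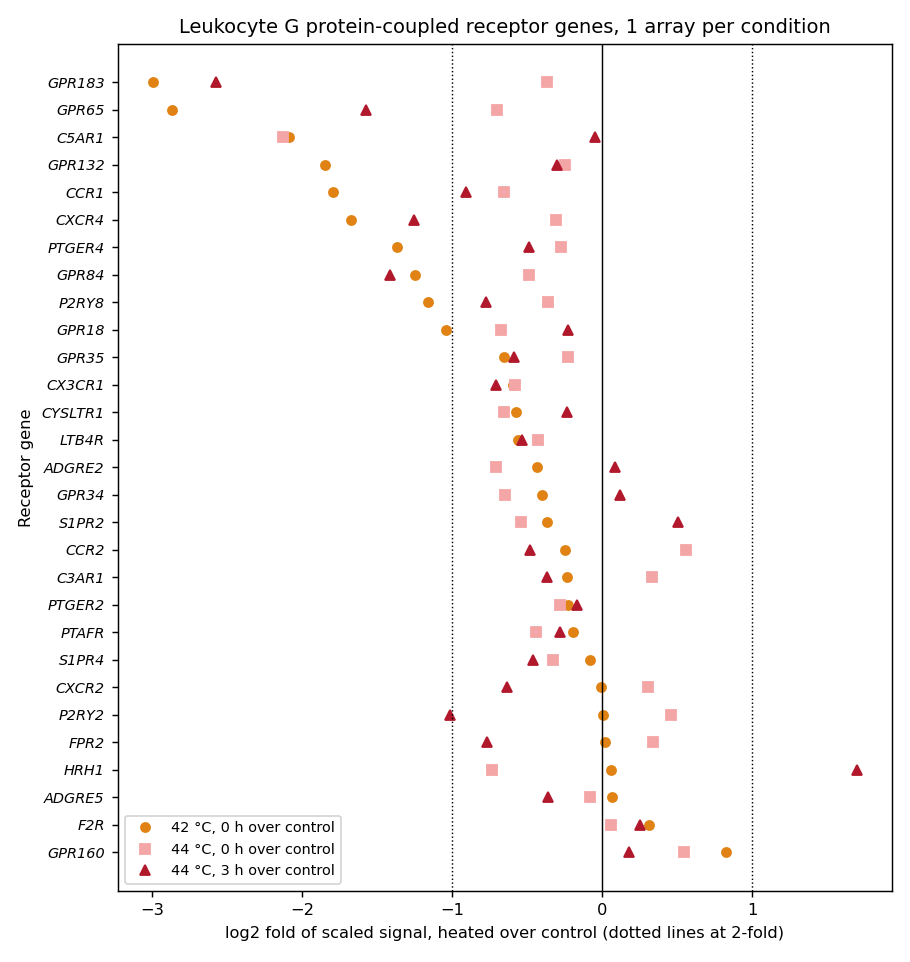
log2 fold of scaled signal over the control for 29 leukocyte G protein-coupled receptor genes, ordered by the fold directly after 42 °C (circles), with 44 °C at 0 h (squares) and at 3 h (triangles), 1 array per condition and dotted lines at 2-fold. For 42 °C at 0 h 10 circles lie left of the 2-fold line, with GPR183 and GPR65, which were chosen by this fall, farthest out.

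Genes that work with each of the 4 were counted on lists of their own. The enzymes that make or break down oxysterol ligands of GPR183 were too dim: of 5 measured, 0 could be called directly after 42 or 44 °C. Of 16 measured genes of cyclic AMP signalling, through which GPR65 acts, 15 could be called. Directly after 42 °C 0 changed and after 44 °C 0, where 4.70% and 2.00% of all genes that could be called fell. At 3 h after 44 °C the adenylyl cyclase ADCY7 had a log2 fold of -1.29, and -0.61 by its second probe set. Of 16 measured C-type lectins and relatives other than CD69, 0 changed directly after 42 °C, 0 after 44 °C and 0 at 3 h after 44 °C. Only 6, 5 and 6 of them were bright enough to be called, where 4.70%, 2.00% and 2.76% of all such genes fell. With so few genes a count of 0 lies near those shares. On the wider list of leukocyte activation and surface antigens, CD69 left out, 2 of 46 fell directly after 42 °C and 1 rose, with 41 bright enough to be called, against 4.70% lower and 1.82% higher of all genes that could be called. They were PLAUR, the urokinase receptor (log2 fold -1.29, with other probe sets at -1.24 and 0.29), ITGAX, an integrin chain (-1.08 with the floor on 1 side, a bound), and CD38, an ectoenzyme (1.30). Among the partners and relatives of CITED2, 1 of 13, with 10 that could be called, fell directly after 42 °C, its relative CITED4, with 101 against 223 in the control. Other probe sets of SMAD3 ran from -2.14 to -0.40 in log2 fold and those of ARNT from -1.07 to 0.44, though neither gene was counted as lower. Targets of hypoxia-inducible factors, which CITED2 restrains, counted 4 of 22 lower and 1 higher directly after 42 °C, with 19 that could be called, beside the same 4.70% and 1.82% of all genes. Their median log2 fold was -0.34, and -0.45 among those that could be called. Those past 2-fold were ANKRD37 (-1.57), PFKFB4 (-1.27), PFKFB3 (-1.01) and HK2 (-1.01), against ALDOC (1.31). The other 2 probe sets of HK2 were short of 2-fold, the lower one at -0.11, and the second probe sets of ANKRD37 and PFKFB4 were at the floor on both arrays. Among targets not counted as lower, other probe sets of SLC2A3 ran from -1.64 to -0.26 and those of PDK1 from -1.47 to 0.18.

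Short-lived transcripts as a class went both ways directly after 42 °C and mostly down directly after 44 °C. Of 57 measured genes with AU-rich, quickly turned over transcripts, 13 fell and 9 rose directly after 42 °C, with 49 bright enough to be called, against 4.70% lower and 1.82% higher of all genes that could be called. The median log2 fold was 0.00 over the 57, which include genes at the floor, and -0.23 over the 49. RGS1, MYC, IER2 and ID2 led the falls, and RGS2 (2.85), DUSP1 (2.25), KLF2 (1.75) and GADD45B (1.56) the rises. By its second probe set RGS1 was at -0.50, DUSP1 was at 0.80 and 1.14 by its others, and GADD45B was at 0.48 to 1.77 by its others. The second probe set of KLF2 was at the floor on both arrays. Directly after 44 °C 9 of the 57 fell and 1 rose, with 47 bright enough to be called. The median log2 fold was -0.39 over the 57 and -0.43 over the 47. Of the 10176 genes that could be called there, 2.00% fell and 169 rose. At 3 h after 44 °C, when GPR183, GPR65, CD69 and CITED2 were at their lowest for that temperature, 23 of the 57 had risen and 3 had fallen, with a median of 0.39 (0.60 over the 49 that could be called), where 2.28% of all genes that could be called rose and 2.76% fell. Those that fell were MYC (-1.99), JUNB (-1.27) and IER2 (-1.18), and DUSP1, a phosphatase of MAP kinases, had 1009 at 3 h after 44 °C against 59.7 in the control, with log2 folds of -0.88 and 1.78 by its other probe sets. Of 32 factors of mRNA decay, 31 of which could be called, 1 fell directly after 42 °C, ZFP36L2 (-1.05, with other probe sets from -1.85 to -0.98). Directly after 44 °C 1 fell, TOB1 (-1.08, and -0.30 by its second probe set), and at 3 h after 44 °C 1, EDC4 (-1.05). The shares of all genes that could be called were 4.70%, 2.00% and 2.76%. Directly after 42 °C other probe sets ran from -1.08 to 0.28 for CNOT7, -1.04 to 0.89 for DCP2, -0.59 to 1.27 for RC3H1 and 0 to 1.41 for HNRNPD. RGS2 and DUSP1, with 413 and 284 directly after 42 °C against 57.3 and 59.7 in the control, moved opposite to the 4 genes on that array.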

How the data were processed

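Gene expression was measured in 9 samples of U937 cells, and groups came from the treatment labels. The deposited values are linear intensity values per probe set, MAS5 signals per the submitters' processing notes, with the version, scaling target and genome build not given in the sources used here. Deposited trimmed means ran from 101 to 211, so each array was multiplied by a factor (0.474 to 0.989) to a trimmed mean of 100, with 2% trimmed at each end. A floor at the median (12.5) replaced lower values before log2. Of 54675 probe sets, 41097 have 1 symbol in the platform annotation, 1801 several and 11777 none. Each of 19775 genes used its probe set of highest mean log2 signal. With 1 array per group there was no test, and a log2 fold of 1 was the rule. The members, lists and alternatives were chosen with earlier results of these data known.

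Named genes were the 4 members, up to 4 genes per list past 2-fold at 0 h, the 5 genes most correlated with each member, the 10 largest falls directly after 42 °C and 5 chaperones. Other genes were named after their values were seen, where they made up a count or lay with a member. RefSeq promoters matched GPR183, GPR65 and CITED2. Scripts ran in Python 3.11.15 with numpy 2.4.6, pandas 2.3.3 and matplotlib 3.10.9. Alternatives were quantile normalisation, median scaling, no scaling, floors at the 25th and 75th percentile and the median of probe sets. Those added after seeing the data were the 44 °C array at 0 h as baseline and the second probe set of CITED2.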

Additional observations from a re-analysis of the deposited data

Results flagged for a closer look

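Between 1 and 3 h of recovery the log2 folds of 4 of the 4 genes had opposite signs at the 2 temperatures, and those of GPR183 were past 2-fold in both directions, though the fall was short of it with median scaling (-0.87). GPR183 had a log2 fold, 3 h over 1 h, of -1.06 after 44 °C and 2.64 after 42 °C. GPR65, with only the fall past 2-fold, had -1.10 after 44 °C and 0.72 after 42 °C. CD69, with only the rise past 2-fold, had -0.21 after 44 °C and 2.43 after 42 °C. CITED2 had -1.02 after 44 °C and 0.70 after 42 °C, and -0.99 and 0.97 by its second probe set, so its rise and, by that probe set, its fall were short of 2-fold. CD69 had opposite signs in 2 further comparisons: 1.24 after 44 °C and -0.50 after 42 °C at 6 h over 3 h, and -1.11 after 44 °C and 0.47 after 42 °C at 3 h over the control. With 1 array per condition the differences between temperatures were not tested.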

How the results depend on the processing

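No test was possible with 1 array per condition, and no paired analysis was possible because every group holds 1 sample. Of 478 member folds under an alternative, 436 stayed on their side of 2-fold, 35 dropped below it, 7 passed it, and 0 of the folds past 2 changed sign. The cause was not tested, except where a higher floor by construction shortens folds of dim genes. Part of the 436 was fixed in advance. The floor at the 25th percentile lies below every signal of the probe sets used, so its 72 member folds could not change. The median of probe sets could not change GPR183, GPR65 or CD69, which have 1 probe set each. For CITED2 that median is its second probe set on every array, so these 18 folds are counted under 2 alternatives. The number of members lower by 2-fold became 2 at 0 and 1 h after 42 °C, 1 at 3 h after 42 °C and 2 at 3 h after 44 °C, all against the control, with a floor at the 75th percentile, and 2 between 1 and 3 h after 44 °C. With that floor the number higher was 2 at 6 h over 3 h after 42 °C and after 44 °C, and 2 for 44 °C over 42 °C at 0 and 1 h. Without scaling the number lower was 3 at 3 h and 1 at 6 h after 42 °C, 2 at 3 h after 44 °C and 0 at 1 h over 0 h after 44 °C. For 44 °C over 42 °C at 3 h it was 0 lower and 2 higher, where that setting moves the median of all genes bright enough to be called by -0.76 to 1.04 across comparisons. Median scaling, which moves it by -0.31 to 0.34, gave 1 higher at 6 h over 3 h after 42 °C, 2 lower at 1 h after 44 °C and 0 lower at 3 h over 1 h after 44 °C. Quantile normalisation gave 1 lower in that last step. The median of probe sets gave 1 lower at 3 h after 42 °C, 2 higher at 6 h over 3 h after 42 °C, 2 lower at 3 h over 1 h after 44 °C and 4 higher at 6 h over 3 h after 44 °C. The number of all genes past 2-fold had a median of 458 over 18 comparisons (246 to 1019), and of 3195 (2179 to 3985) with the floor at the 25th percentile, 115 (42 to 432) with it at the 75th and 762 (401 to 5727) without scaling. Dim signals limit GPR65 most.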

Other observations

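If the log2 falls directly after 42 °C had run evenly over the 15 min of heating, they would correspond to 1 halving in 5.01 min for GPR183, 5.23 min for GPR65, 6.58 min for CD69 and 7.58 min for CITED2. These falls are the values by which the genes were chosen, from 1 array per condition. GPR65 lay close to the floor, at 14.1 against 12.5. The times restate those falls and are no estimate of decay rates. The time at which RNA was taken after heating is not given in the sources used here beyond 0 h.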
